A study of Homo sapiens with 24 samples.

Results

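The genes described here are 10 interferon-induced antiviral effectors, namely OAS1, OAS2, OAS3, OASL, MX1, MX2, ISG15, ISG20, HERC5 and USP18. They were chosen by symbol, and every probe that the platform annotation assigned to them was read, 18 probes in all, among 20046 genes named on the array. The study profiled Ramos, a human cell line from a Burkitt lymphoma, which arises from B cells of the germinal centre. It also profiled 5 derivatives that grow in doxorubicin, an anthracycline and poison of topoisomerase II. Dox100 was raised from Ramos in 100 nM of the drug, Dox250 from Dox100 in 250 nM, Dox500 from Dox250 in 500 nM, Dox750 from Dox500 in 750 nM and Dox1000 from Dox750 in 1000 nM. All lines grew in RPMI with fetal bovine serum, the derivatives with their own drug concentration in the medium and Ramos with none stated. The 5 derivatives form 1 serial lineage, so they are not independent selections, and drug in the medium cannot be told apart from what the lines had inherited. Each line was measured on 4 Illumina bead arrays, from 4 cultures split from a single culture. These are technical replicates, and p-values measure only the spread between the split cultures.

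Interferons bind receptors on the cell surface, and kinases of the JAK family then activate transcription factors that, together with IRF9, bind a short element in the promoters of interferon-stimulated genes. The OAS enzymes are activated by double-stranded RNA and make short oligoadenylates that switch on a latent ribonuclease, whereas the MX proteins are large GTPases that block incoming viruses. ISG15 is a ubiquitin-like protein that HERC5 attaches to newly made proteins. USP18 removes it again and also restrains signalling at the type I interferon receptor. ISG20 is an RNA exonuclease.

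These genes are read together because they are known targets of that element, so their promoters are shown first for the genes whose promoter sequence was given. Promoters were taken from RefSeq (GRCh38.p14), which supplied 8 for 6 of the 10 genes, 3 of them for MX1. One start per gene is printed over the 150 bases before it, 5′ to 3′. For MX1 the start shown has 2 matches, while the first has 1 and the third has none in these 150 bases. Capitals mark a core of that element, a pair of GAAA repeats separated by 2 bases of any kind (N), or its form with a 1-base spacer, which was added after the sequences had been read. Both strands were searched, so a reversed match appears as a pair of TTTC repeats, and overlapping matches are joined.
ISG15 (chr1:1013347-1013496, plus strand): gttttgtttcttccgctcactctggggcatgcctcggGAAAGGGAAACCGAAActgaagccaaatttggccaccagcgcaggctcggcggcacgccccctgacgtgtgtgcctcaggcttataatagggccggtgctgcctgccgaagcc
OAS1 (chr12:112906812-112906961, plus strand): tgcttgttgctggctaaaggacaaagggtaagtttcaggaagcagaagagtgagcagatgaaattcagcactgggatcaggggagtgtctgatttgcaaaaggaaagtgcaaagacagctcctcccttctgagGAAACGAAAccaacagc
OAS3 (chr12:112938324-112938473, plus strand): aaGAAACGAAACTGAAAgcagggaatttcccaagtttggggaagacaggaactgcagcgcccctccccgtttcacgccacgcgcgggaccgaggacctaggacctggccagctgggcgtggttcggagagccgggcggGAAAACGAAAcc
MX1, second of 3 starts (chr21:41426089-41426238, plus strand): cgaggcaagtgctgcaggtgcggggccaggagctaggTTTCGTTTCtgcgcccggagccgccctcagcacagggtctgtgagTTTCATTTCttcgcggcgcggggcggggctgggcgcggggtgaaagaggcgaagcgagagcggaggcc
ISG20 (chr15:88638866-88639015, plus strand): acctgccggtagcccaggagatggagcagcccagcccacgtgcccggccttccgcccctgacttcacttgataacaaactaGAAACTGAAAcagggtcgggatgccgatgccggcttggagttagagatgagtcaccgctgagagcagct
HERC5 (chr4:88456969-88457118, plus strand): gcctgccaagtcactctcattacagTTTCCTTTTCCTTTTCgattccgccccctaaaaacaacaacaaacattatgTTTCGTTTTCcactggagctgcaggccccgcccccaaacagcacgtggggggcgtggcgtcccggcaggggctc
Over 250 bases before the start, the 2-base spacer was matched in 5 of the 8 promoters, against 3.021% of 35116 promoters of all genes. The 1-base spacer was matched in 4 of 8, against 2.691%. The genes were grouped as known targets of the element, so the first contrast follows from that choice and is no finding. The second share describes a form chosen on these same promoters, so nothing is read from it. In ISG15 a pair of overlapping matches began 113 and 107 bases before the start, in OAS1 the single match began 17 bases before it, and in HERC5 3 matches began 125, 119 and 74 bases before it. A match is a description of these letters and not evidence of binding.

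Arrays had a median signal of 121.1 to 163.4 and detected 14158 to 15564 of 47323 probes (detection p under 0.01), and arrays of the same line correlated at r of 0.988 to 0.994. Levels below are background-corrected, quantile-normalized log2 intensities of a gene's brightest kept probe, and they are not compared between probes. Differences are on the log2 scale with their SE, as fitted in limma with 4 arrays per line, and a gene passed at a Benjamini-Hochberg adjusted p under 0.05 over all 15765 probes kept. Of 7 B cell markers on the array, 5 were detected in each derivative and 6 in Ramos, with summed signals of 24612 to 29247 in the derivatives and 19466 to 22021 in Ramos, and PAX5, a defining B cell factor, was undetected on every array. T and NK cell markers (10) were detected in numbers of 1 to 3 per derivative and 1 in Ramos, with sums of 342 to 499 in the derivatives and 291 to 330 in Ramos, and CD3D, CD4, CD8A and GNLY were undetected throughout. Myeloid markers (8) were detected in numbers of 1 or 2 per derivative and 0 in Ramos, with sums of 254 to 432 and 211 to 256, and CSF1R, FCER1G, S100A8 and S100A9 were undetected throughout. Epithelial or stromal markers (6) numbered 0 or 1 per derivative and 0 in Ramos, with sums of 156 to 352 and 163 to 192, and EPCAM and COL1A1 were undetected throughout. The 4 plasmacytoid dendritic cell markers, a cell type that makes much interferon, were undetected on every array. Plasma cell markers (4) were 3 detected in every line, PRDM1 being undetected, with sums of 8545 to 15135 in the derivatives, lowest in Dox500, and 8256 to 8879 in Ramos. The part of other cells in the results was not tested, and fewer cells of a type and less RNA per cell cannot be told apart in bulk RNA.

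Of the 10 genes, 8 gave a level that could be tested. HERC5, the main ligase of ISG15 in human cells, was undetected on all 24 arrays, its lowest detection p being 0.158. OASL, an OAS-like protein without the enzyme's activity, was detected on 1 array of Dox750 by 1 of its 2 probes (detection p 0.00519). On the other 3 Dox750 arrays the same probe had detection p of 0.0104 to 0.0468, and both probes were undetected in every other line. No fold change is given for either gene.

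Against Ramos, the mean of each tested gene was higher in every derivative, and MX1, OAS2 and ISG15 showed the largest differences apart from USP18, which was undetected in Ramos. The number that rose was 7 of 8 in Dox100, 8 in Dox250, 6 in Dox500, 8 in Dox750 and 8 in Dox1000, against 24.1%, 23.9%, 25.2%, 26.8% and 27.6% of the 9533 genes tested. None fell, against 22.2%, 25.5%, 23.2%, 25.9% and 29.7% of all genes. None fell at an unadjusted p under 0.05 in limma either, a threshold for which no share of all genes is given. At least 2-fold higher fitted levels were seen for 6, 6, 4, 6 and 7 members, against 4.48%, 4.33%, 3.91%, 4.81% and 6.04% of all genes. The 2-fold counts depend on the background correction. Without it MX2, USP18 and OAS3 differed by 0.77, 0.65 and 0.70 in Dox1000, each under 2-fold. The median log2 change over the 8 genes was 1.65, 1.60, 1.10, 2.15 and 1.74, or 1.36, 1.37, 0.98, 1.71 and 1.49 with USP18 set at its bound (at 0 where it had none), against -0.002, -0.01, 0.01, -0.002 and -0.02 over all genes. All 4 arrays of the derivative lay beyond all 4 of Ramos for 7, 7, 6, 8 and 8 members, against 40.3%, 44.3%, 44.7%, 47.8% and 50.2% of all genes. The 5 comparisons share the Ramos arrays. USP18 is in each count of genes that rose or did not overlap, and in each 2-fold count but that of Dox500. It was kept only through derivatives where it was detected, so against Ramos it could only be called higher.

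**Figure D1:**
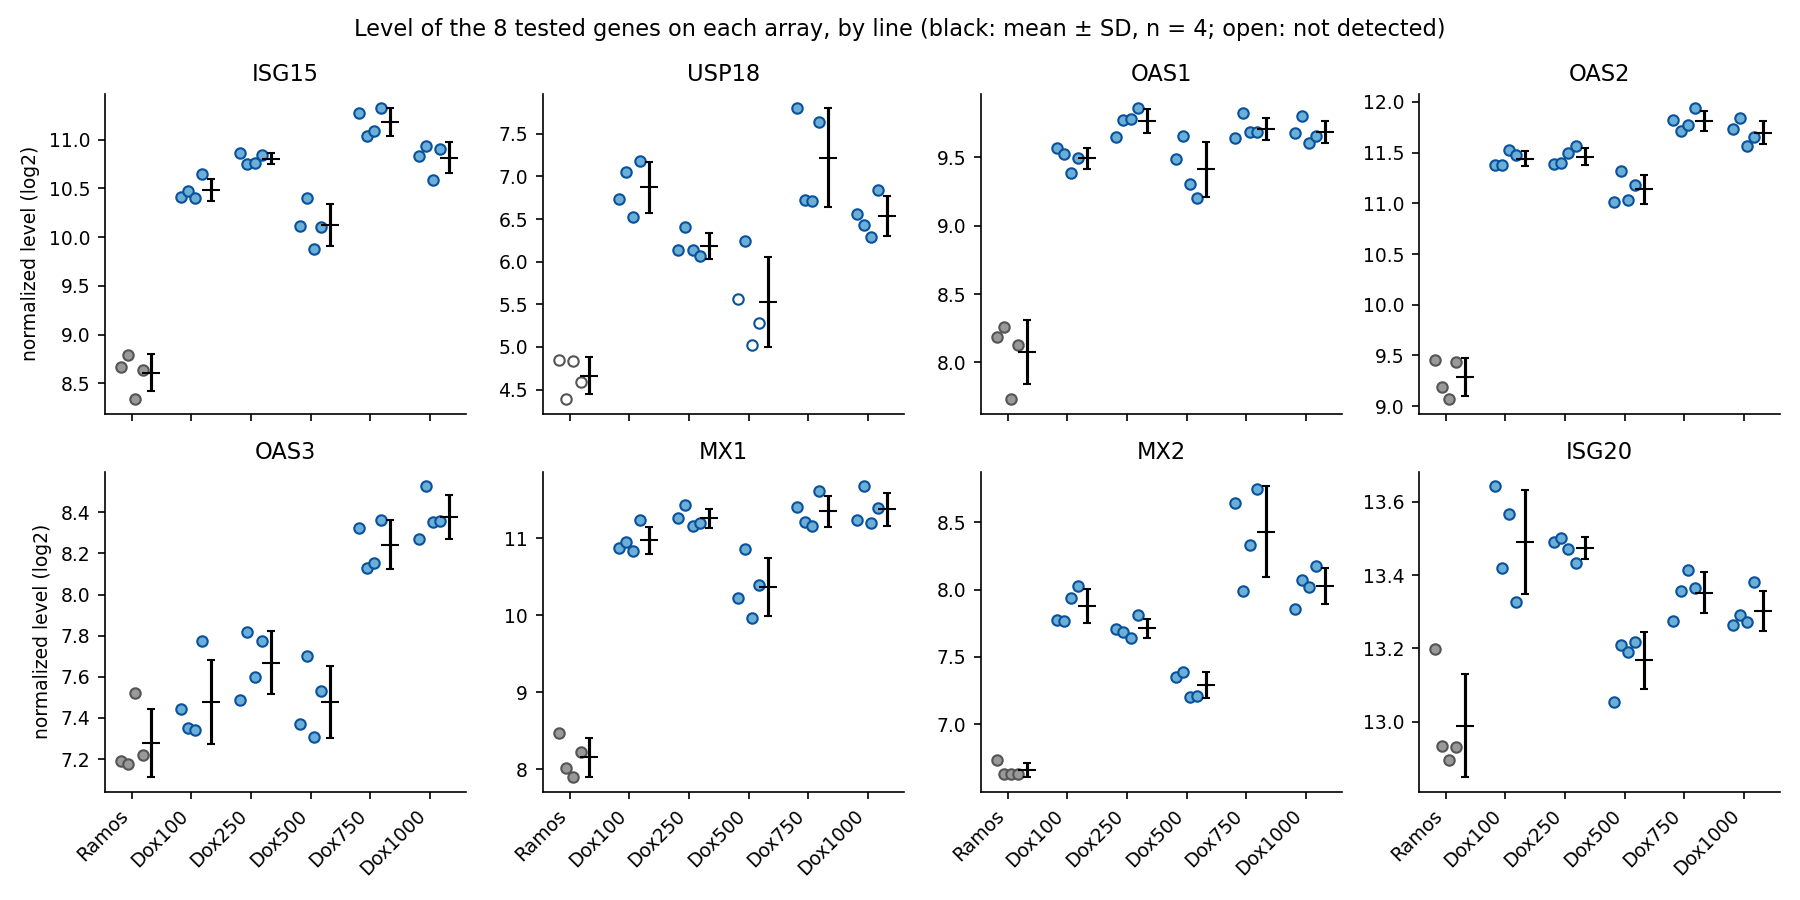
Normalized log2 level of the 8 tested genes on each array, by line, with the black bar at the mean ± SD (n = 4) and open circles for arrays where the probe was not detected. Each panel has its own vertical axis. Ramos is lowest by mean in all 8 panels, and Dox500 has the lowest mean of the derivatives in all 8, for OAS3 by only 0.0007. The test separated Dox500 from the next derivative only for OAS2, MX1, MX2 and ISG15. USP18 is open on all 4 Ramos arrays.

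ISG15, the modifier itself, rose in all 5 derivatives and was highest in Dox750. Its log2 level was 8.67, 8.79, 8.34 and 8.64 on the 4 Ramos arrays, 10.41, 10.48, 10.40 and 10.65 in Dox100, 10.86, 10.75, 10.76 and 10.84 in Dox250, 10.11, 10.40, 9.88 and 10.10 in Dox500, 11.28, 11.03, 11.09 and 11.32 in Dox750 and 10.83, 10.94, 10.58 and 10.90 in Dox1000. No derivative array overlapped with Ramos, and the Dox500 arrays were the lowest of the derivatives by mean. The differences from Ramos were 1.88, 2.20, 1.52, 2.57 and 2.21 (SE 0.11), or 3.67-, 4.58-, 2.86-, 5.95- and 4.62-fold, and the adjusted p was 6.21e-15 in Dox750 and 1.21e-10 in Dox500.

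USP18, the protease that removes ISG15, followed with a wider spread. Its log2 level was 4.84, 4.39, 4.84 and 4.59 on the 4 Ramos arrays, 6.74, 7.05, 6.52 and 7.18 in Dox100, 6.14, 6.40, 6.14 and 6.06 in Dox250, 5.56, 6.24, 5.02 and 5.28 in Dox500, 7.80, 6.73, 6.72 and 7.64 in Dox750 and 6.56, 6.43, 6.29 and 6.84 in Dox1000. It was undetected on all 4 Ramos arrays and on 3 of 4 Dox500 arrays (replicate 2 detected it), and detected on every array of the other derivatives. Relative to Ramos it was higher by at least 2.48-fold (Dox100), 1.54-fold (Dox250), 3.15-fold (Dox750) and 1.95-fold (Dox1000), a bound that sets the brighter line against the lowest detected signal on the Ramos arrays or the probe's own, whichever was higher. The adjusted p in limma was 1.10e-07, 1.93e-05, 8.82e-09 and 1.02e-06. USP18 was kept only through derivatives that detected it, so these tests could only come out higher and add no support. In Dox500 the test was passed too (adjusted p = 0.00587), but the bound is under 1-fold and no fold is given. Without background correction the fitted differences were 0.81, 0.51, 0.31, 0.999 and 0.65, and each passed. Those in Dox100, Dox250, Dox750 and Dox1000 lie below the bounds on the log2 scale (1.31, 0.62, 1.66 and 0.97). The bounds therefore apply only to the background-corrected levels.

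OAS1 and OAS2, which lie beside OAS3 on chromosome 12 in the order OAS1, OAS3, OAS2, rose in all 5 derivatives. The log2 level of OAS1 was 8.19, 8.26, 7.73 and 8.12 on the 4 Ramos arrays, 9.56, 9.52, 9.38 and 9.50 in Dox100, 9.65, 9.78, 9.78 and 9.86 in Dox250, 9.49, 9.66, 9.31 and 9.20 in Dox500, 9.64, 9.82, 9.68 and 9.69 in Dox750 and 9.68, 9.80, 9.60 and 9.66 in Dox1000. That of OAS2 was 9.46, 9.19, 9.07 and 9.44 on the 4 Ramos arrays, 11.38, 11.38, 11.53 and 11.48 in Dox100, 11.39, 11.40, 11.49 and 11.56 in Dox250, 11.01, 11.32, 11.03 and 11.19 in Dox500, 11.82, 11.71, 11.78 and 11.94 in Dox750 and 11.74, 11.84, 11.57 and 11.65 in Dox1000. For both genes every derivative array lay above every Ramos array. OAS1 differed from Ramos by 1.41, 1.69, 1.34, 1.63 and 1.61 (SE 0.10), with an adjusted p of at most 3.48e-10. OAS2 differed by 2.15, 2.17, 1.85, 2.52 and 2.41 (SE 0.09), with an adjusted p of at most 1.16e-13.

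OAS3, the largest enzyme of the family, rose in Dox250, Dox750 and Dox1000. Its log2 level was 7.19, 7.17, 7.52 and 7.22 on the 4 Ramos arrays, 7.44, 7.35, 7.34 and 7.77 in Dox100, 7.49, 7.82, 7.60 and 7.77 in Dox250, 7.37, 7.70, 7.31 and 7.53 in Dox500, 8.32, 8.13, 8.15 and 8.36 in Dox750 and 8.27, 8.53, 8.35 and 8.36 in Dox1000. The Dox750 and Dox1000 arrays lay above all Ramos arrays, whereas those of the other derivatives overlapped with Ramos. The differences were 0.20 (adjusted p = 0.151), 0.39 (0.00571), 0.20 (0.148), 0.97 (1.76e-07) and 1.10 (2.27e-08), with an SE of 0.11. Under median scaling in place of quantile normalization the Dox250 difference was 0.25 and did not pass (adjusted p = 0.0982), and the Dox500 value changed sign (-0.0045). Without background correction the 3 that passed were 0.23, 0.61 and 0.70, and they passed as well. The other genes of chromosome 12 (529) were also higher by a median of 0.42, 0.44, 0.44, 0.45 and 0.43, and 74.3%, 55.6%, 72.8%, 13.0% and 11.0% of them differed by at least as much as OAS3. The part of that shift in the OAS differences was not tested.

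**Figure D2:**
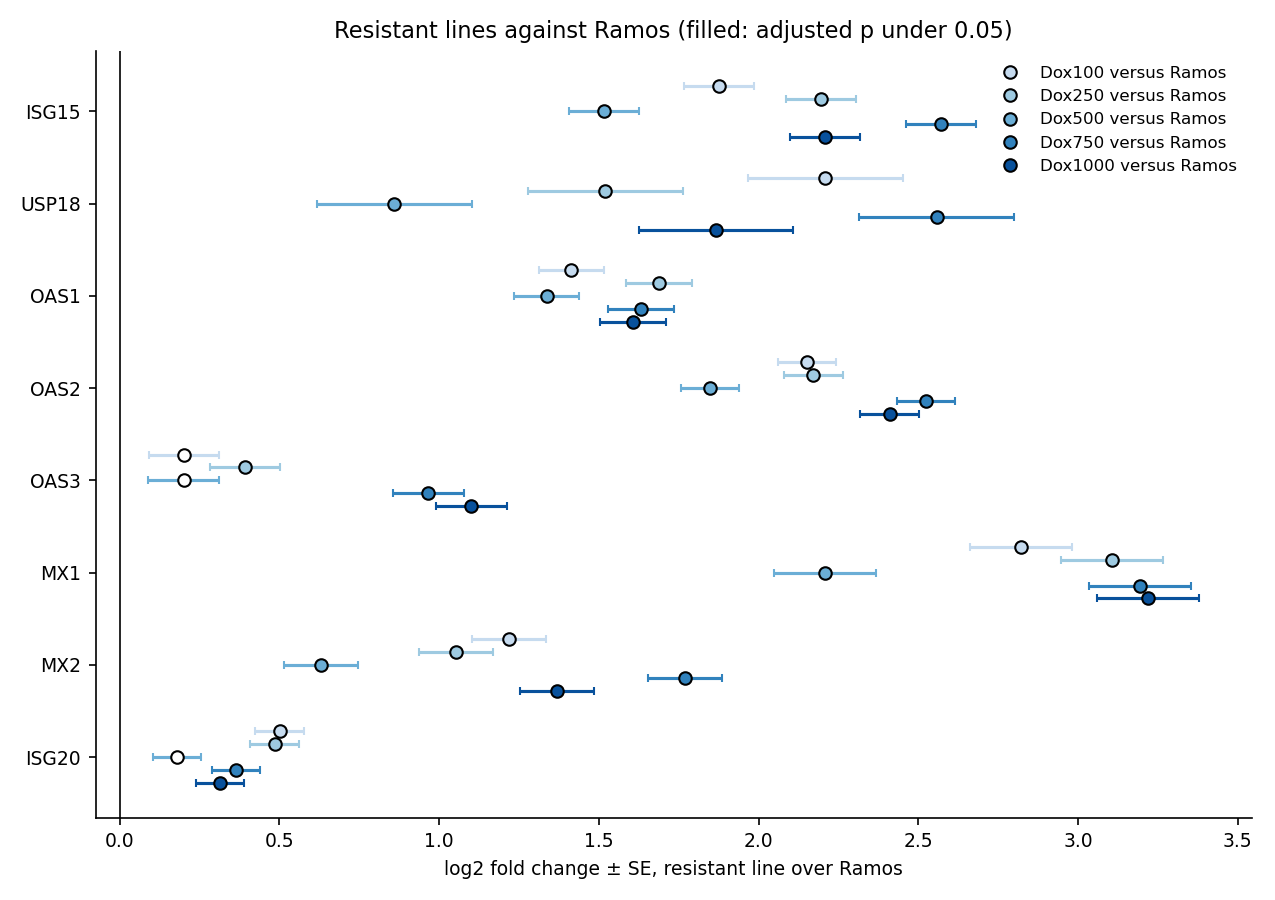
Log2 fold change ± SE of each derivative over Ramos for the 8 tested genes, filled where the adjusted p was under 0.05. Every point lies right of 0, the open points being OAS3 in Dox100 and Dox500 and ISG20 in Dox500, and the USP18 points are fitted values of a gene undetected in Ramos.

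OAS1 and OAS2 each had 4 kept probes, and for both genes the 3 brightest rose in every derivative. The 4 probes of OAS1 lie on 3 transcript records. Its next 2 probes by brightness differed from Ramos by 1.33, 1.89, 1.23, 1.85 and 1.82 and by 0.92, 1.10, 0.82, 1.16 and 1.03. Those of OAS2 differed by 1.83, 2.02, 1.66, 2.52 and 2.62 and by 1.81, 1.95, 1.21, 2.20 and 1.85, the dimmer of the pair being detected on 2 of 4 Ramos arrays. The dimmest probe of each gene was not above background in Ramos, so no difference is given for it. That of OAS1 was detected on 1, 0, 1, 2 and 3 of the 4 arrays of the derivatives in order of dose, and that of OAS2 on 2, 1, 1, 4 and 3. The second probe of OAS3 was undetected on all 24 arrays, so OAS3 rests on 1 probe, and MX1, MX2, ISG15, ISG20 and USP18 had 1 probe each.

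**Figure D3:**
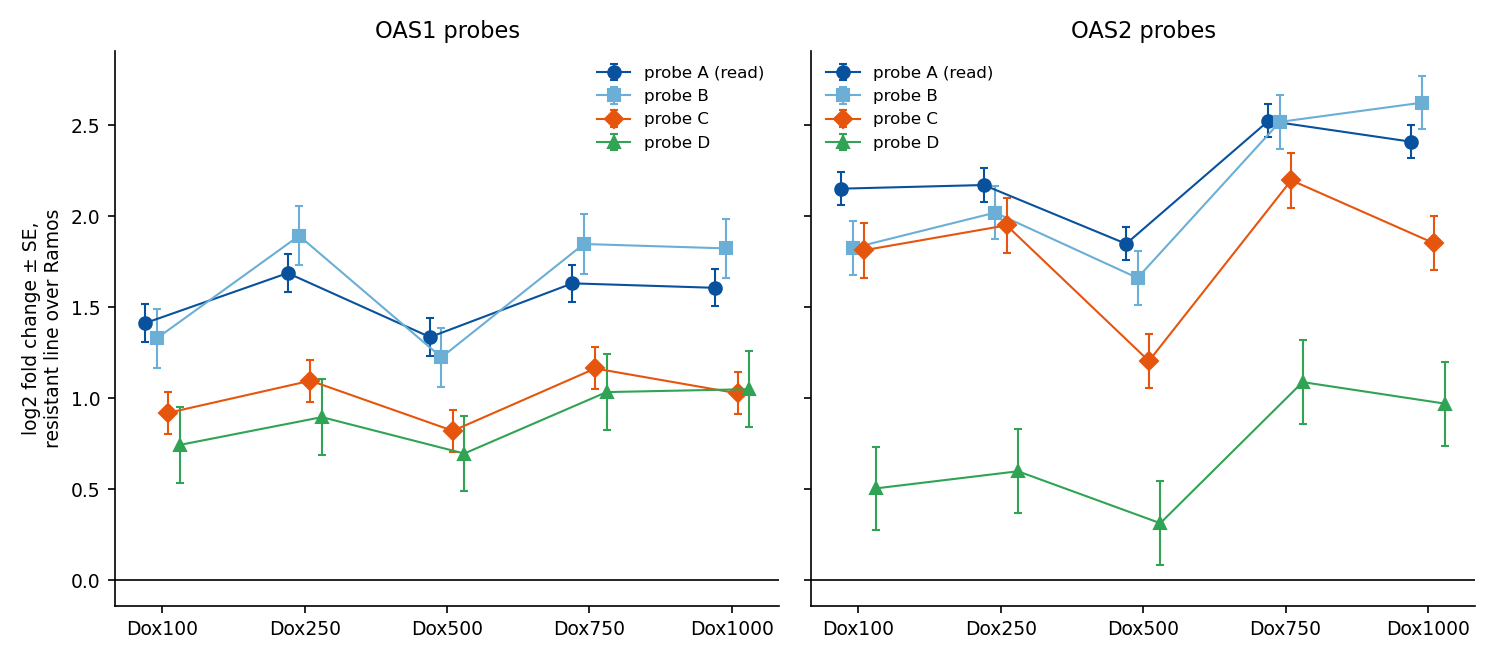
Log2 fold change ± SE over Ramos for each of the 4 kept probes of OAS1 and of OAS2, by derivative. Probe A is the brightest and is the one read for the gene. Probes A to C run from 0.82 to 1.89 for OAS1 and from 1.21 to 2.62 for OAS2. Probe D of each gene was undetected on all 4 Ramos arrays, and its points are fitted values that are not read as sizes of change.

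MX1, the human MxA protein that acts on many viruses, showed the largest change of the genes detected in every line. Its log2 level was 8.48, 8.02, 7.90 and 8.22 on the 4 Ramos arrays, 10.88, 10.95, 10.84 and 11.23 in Dox100, 11.26, 11.43, 11.16 and 11.20 in Dox250, 10.23, 10.87, 9.97 and 10.39 in Dox500, 11.41, 11.21, 11.17 and 11.61 in Dox750 and 11.23, 11.68, 11.20 and 11.39 in Dox1000. The 20 derivative arrays all lay above the 4 Ramos arrays, and the Dox500 arrays were the lowest of them by mean. The differences were 2.82, 3.11, 2.21, 3.19 and 3.22 (SE 0.16), or 7.06-, 8.61-, 4.62-, 9.15- and 9.32-fold, with an adjusted p of 9.06e-14 in Dox1000.

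MX2, a neighbour of MX1 on chromosome 21 that acts on lentiviruses, rose in all 5 derivatives by less. Its log2 level was 6.74, 6.63, 6.63 and 6.64 on the 4 Ramos arrays, 7.78, 7.77, 7.94 and 8.03 in Dox100, 7.71, 7.68, 7.64 and 7.81 in Dox250, 7.35, 7.39, 7.20 and 7.21 in Dox500, 8.64, 7.99, 8.33 and 8.74 in Dox750 and 7.86, 8.07, 8.02 and 8.18 in Dox1000. All derivative arrays lay above Ramos, and the highest arrays were in Dox750. The differences were 1.22, 1.05, 0.63, 1.77 and 1.37 (SE 0.12), the smallest with an adjusted p of 0.000115. Without background correction they were 0.67, 0.56, 0.31, 1.05 and 0.77, and each passed. The other 98 genes tested on chromosome 21 had medians of -0.12, -0.14, -0.06, -0.09 and -0.13.

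ISG20, the exonuclease, rose in 4 of the 5 derivatives by small amounts. Its log2 level was 13.20, 12.93, 12.89 and 12.93 on the 4 Ramos arrays, 13.64, 13.42, 13.57 and 13.33 in Dox100, 13.49, 13.50, 13.47 and 13.43 in Dox250, 13.05, 13.21, 13.19 and 13.22 in Dox500, 13.28, 13.36, 13.41 and 13.37 in Dox750 and 13.26, 13.29, 13.27 and 13.38 in Dox1000. The arrays of Dox100, Dox250, Dox750 and Dox1000 lay above all Ramos arrays, while those of Dox500 overlapped with Ramos. The differences were 0.50, 0.48, 0.18, 0.36 and 0.31 (SE 0.08). Those in Dox100, Dox250, Dox750 and Dox1000 passed (adjusted p of 0.00137 or less), and that in Dox500 did not (0.0584). Under median scaling the Dox1000 difference was 0.18 and did not pass (adjusted p = 0.1), and the Dox500 value changed sign (-0.0052). Without Ramos replicate 1, or without Dox500 replicate 1, the Dox500 difference passed at 0.25 and 0.22 (adjusted p = 0.00815 and 0.0347).

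The next comparison sets each derivative against the line it was raised from, and the steps share arrays, since Dox500 enters both Dox500 versus Dox250 and Dox750 versus Dox500. OAS2, MX1, MX2 and ISG15 passed at both steps, lower in Dox500 than in Dox250 and higher in Dox750 than in Dox500. The share of all genes that did so at both steps is not given, so nothing is read from their number. Against Dox250, 6 of 8 genes fell and none rose, against 6.81% and 7.86% of all genes, and in Dox750 against Dox500, 6 rose and none fell, against 3.98% and 4.02%. At an unadjusted p under 0.05 in limma, 7 fell and 0 rose at the first of these steps, and 8 rose and 0 fell at the second. No share of all genes is given at that threshold, and the shares above do not apply to it. The median change was -0.39 and 0.88 at these steps, against 0.03 and -0.01 over all genes. The 4 later arrays lay beyond the 4 earlier ones for 5 and 7 members, against 21% and 17.9% of all genes.

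In Dox500 against Dox250, MX1 fell by 0.90 (adjusted p = 0.000609), ISG15 by 0.68 (0.000223) and ISG20 by 0.31 (0.00918), and these 3 passed also with any 1 array left out. OAS1 (-0.35, adjusted p = 0.0254), OAS2 (-0.32, 0.0215) and MX2 (-0.42, 0.0185) passed with all arrays but not with some left out. The count was 3 in place of 6 without Dox250 replicate 4 or without Dox500 replicate 3. USP18 (-0.66, 0.072) and OAS3 (-0.19, 0.267) did not pass, and USP18 did without Dox500 replicate 2 (-0.90, adjusted p = 0.0155). With no filter on dim probes the count was 3.

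In Dox750 against Dox500, USP18 rose by 1.70 (adjusted p = 0.000101), MX2 by 1.14 (1.08e-06), ISG15 by 1.06 (1.31e-06), MX1 by 0.99 (0.000429), OAS3 by 0.77 (0.000115) and OAS2 by 0.68 (5.01e-05). MX2, ISG15 and USP18 were at least 2-fold higher by the fitted values, as were 0.325% of all genes, although USP18 was detected on only 1 of 4 Dox500 arrays. Without background correction MX2 rose by 0.74 and USP18 by 0.69, both under 2-fold, and both passed. All 6 passed with any 1 array left out. OAS1 (0.30, adjusted p = 0.0796) and ISG20 (0.18, 0.138) did not pass, and OAS1 did without Dox500 replicate 2 (0.38, 0.0381).

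The other 2 steps showed less. In Dox250 against Dox100 no member passed, against 5.21% of all genes higher and 8.25% lower. At an unadjusted p under 0.05 in limma 2 were higher and 1 lower, with no share of all genes given at that threshold. ISG15 stood at 0.32 (adjusted p = 0.0588), OAS1 at 0.27 (0.0829) and USP18 at -0.69 (0.0654), and 1 to 3 members passed under several other settings of the processing. In Dox1000 against Dox750 none rose and 3 fell, against 12.1% and 11.7% of all genes, so the share that fell, 3 of 8, rests on few genes. They were MX2 (-0.40, adjusted p = 0.0163), ISG15 (-0.36, 0.0199) and USP18 (-0.69, 0.045). None of the 3 passed without Dox750 replicate 1 or without Dox750 replicate 4, and 1 passed without Dox1000 replicate 1 or 3. The median changes at these steps were 0.11 and -0.08, against -0.01 over all genes at both, and the arrays did not overlap for 3 and 1 members, against 16.2% and 26.7%.

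**Figure D4:**
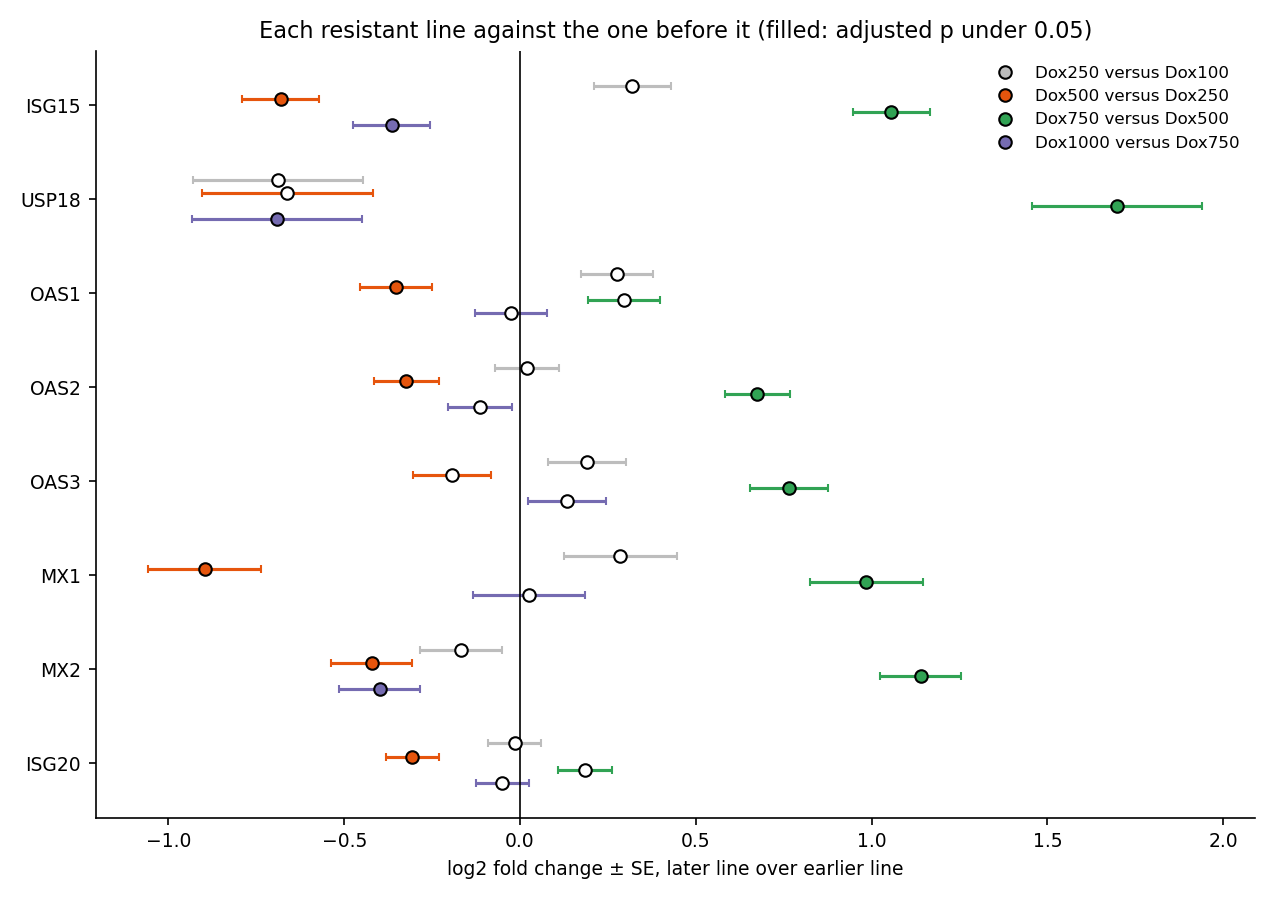
Log2 fold change ± SE of each derivative over the line before it for the 8 tested genes, filled where the adjusted p was under 0.05. All 8 points of Dox500 versus Dox250 lie left of 0 (-0.90 to -0.19) and all 8 of Dox750 versus Dox500 right of it (0.18 to 1.70).

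Ordered by mean level, Ramos was lowest and Dox500 next lowest in all 8 genes. Dox750 was highest for OAS2, MX2, ISG15 and USP18, Dox1000 for OAS3 and MX1, Dox250 for OAS1 and Dox100 for ISG20. Of the 40 pairs of neighbours in these orders, 13 differed beyond the threshold, namely 3 for MX2 and ISG15, 2 for OAS2 and MX1, 1 for OAS1, OAS3 and USP18 and 0 for ISG20. Dox500 differed from Ramos for OAS1, OAS2, MX1, MX2, ISG15 and USP18, and Dox100 from Dox500 for OAS2 (0.30, adjusted p = 0.0215), MX1 (0.61, 0.00848) and ISG15 (0.36, 0.0222). The top pair differed for MX2 (Dox750 over Dox1000 by 0.40) and ISG15 (Dox750 over Dox1000 by 0.36), and OAS3 was 0.57 higher in Dox750 than in Dox250 (adjusted p = 0.00219). The other neighbours among the derivatives, apart from Dox250 and Dox500 for MX2, were not separated by the test.

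Within a line several genes shared their highest or lowest array. In Dox500, replicate 2 was the highest of the 4 arrays for 7 of 8 genes, as for 24.1% of all genes, and replicate 3 was the lowest for 5, as for 24.2%. Replicate 2 of Dox500 also had the lowest median signal of all arrays (121.1). In Ramos, replicate 3 was the lowest for 6 of 8, as for 28.3% of all genes. Across the 28 pairs of genes, Pearson's r over the 24 arrays ran from 0.25 to 0.98 with a median of 0.79, and r of the deviations from the line means ran from -0.30 to 0.77 with a median of 0.42. The arrays share their normalization, and the first set of values rests largely on the 6 line means.

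Among all other genes, those most like the mean of the 8 (Pearson's r over 24 arrays) were IRF7 at 0.98, HELZ2 at 0.97, EPSTI1 at 0.97, IFI35 at 0.97, LRRC17 at 0.96 and ABCG1 at 0.95. For single genes the most alike were ELAPOR1 for OAS1 (0.97), SPRED1 for OAS2 (0.98), MACROD2 for OAS3 (0.93), IRF7 for MX1 and for ISG15 (0.98 each), IFIT1 for MX2 (0.96), CABLES1 for ISG20 (0.92) and SP110 for USP18 (0.94). IRF7, a transcription factor of the interferon response, had a mean log2 level of 6.92 in Ramos, 8.89 in Dox100, 9.24 in Dox250, 8.57 in Dox500, 9.66 in Dox750 and 9.66 in Dox1000. Its lowest derivative was Dox500, but IRF7 was picked for its likeness to the 8 genes over the same arrays, so this is no separate result.

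The rest of the interferon pathway was read from lists, whose shares can be set beside the percentages of all genes given above. The 9 interferon genes listed were undetected on all 24 arrays. Of 12 receptors, kinases and transcription factors analysed (2 more are not analysed here), 7, 6, 6, 6 and 7 rose against Ramos and 2, 2, 1, 2 and 1 fell, with medians of 0.37, 0.28, 0.22, 0.34 and 0.44. In Dox1000 IRF7 rose by 2.74 ± 0.12, IRF9, the DNA-binding partner of the complex, by 2.17 ± 0.12, and IFNAR2, a chain of the type I receptor, by 1.18 ± 0.10, although another probe of IFNAR2 differed in sign. The genes that fell, named after their values were seen, were JAK1 (Dox100, Dox500 and Dox750), JAK2 (Dox100 and Dox250) and IRF3 (Dox250, Dox750 and Dox1000). Of 3 inhibitors of signalling tested, 1 rose and 1 fell in each derivative, with medians of -0.01 to 0.14. PTPN6, a phosphatase that dampens cytokine receptors, was 1.94 ± 0.12 higher in Dox1000, and SOCS1, which inhibits the JAK kinases, differed by -1.06, -1.07, -1.70, -1.55 and -1.19 (SE 0.12).

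The partners of ISG15 did not all rise. Of the 4 of 5 listed that could be tested, 2, 2, 2, 2 and 3 rose and 0, 0, 1, 0 and 0 fell, with medians of 0.52, 0.42, 0.01, 0.59 and 1.01, and HERC6 (named after its values were seen) was undetected on all arrays. UBA7, the activating enzyme, stood at 0.10, 0.08, -0.34, 0.14 and 0.74 (SE 0.12), of which the Dox500 value fell (adjusted p = 0.0284) and the Dox1000 value rose (2.52e-05). UBE2L6, the conjugating enzyme, rose by 0.95, 0.77, 0.22, 1.01 and 1.27 (SE 0.07), although in Dox500 another of its probes differed in sign, and its adjusted p there was 0.0135. TRIM25, a ligase for ISG15 and ubiquitin, rose by 0.94, 2.26, 2.09, 2.48 and 2.21 (SE 0.13). Of 3 genes tested from the list of the oligoadenylate pathway, 0, 0, 1, 1 and 0 rose and 1, 1, 0, 1 and 1 fell, with medians of -0.20 to 0.22. PNPT1, an RNA-degrading enzyme of mitochondria, was the one that fell (-0.51 ± 0.13 in Dox1000, adjusted p = 0.00316), but another of its probes differed in sign in the other 4 derivatives. In Dox100 and Dox250 no gene of this list fell with the mean over probes. The Dox250 fall was also lost without Dox250 replicate 2, with no filter and at an adjusted p under 0.01. In Dox750, too, the fall was not kept in every setting. PDE12, which degrades the oligoadenylates, was the one that rose (0.32 in Dox500 and 0.38 in Dox750, named after its values were seen).

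Of 8 sensors and adaptors tested of 11, 7, 8, 5, 5 and 5 rose and 0, 0, 1, 0 and 0 fell (TLR7 in Dox500, named after its values were seen). The Dox250 count was 5 in place of 8 without Dox250 replicate 4, with no filter or at an adjusted p under 0.01. It was also 5 with only probes detected on all 24 arrays, where 3 rose in Dox750 and in Dox1000, since fewer genes were then tested. The medians of the 8 sensors and adaptors were 0.89, 0.71, 0.51, 0.59 and 0.70. They were 0.62, 0.35, 0.24, 0.39 and 0.41 with genes undetected in a line at their bound (at 0 where they had none). In Dox1000 IFIH1, a sensor of long double-stranded RNA, rose by 1.20 ± 0.14, DHX58, its regulator, was at least 2.22-fold higher, and STING1, the adaptor for cytosolic DNA, at least 1.21-fold higher. Of 29 other induced effectors tested of 38, 24, 20, 13, 23 and 23 rose and 1, 2, 4, 1 and 2 fell. Their medians were 1.29, 0.81, 0.41, 1.08 and 0.98. They were 0.83, 0.70, 0.11, 0.94 and 0.84 with genes undetected in a line at their bound (at 0 where they had none). The lowest median and the fewest that rose were thus in Dox500, as for the 8 genes. IFI44 was at least 36.0-fold higher in Dox1000 and IFI27 at least 10.1-fold. These bounds and those of DHX58 and STING1 apply only to the background-corrected levels, as for USP18. IFI44L passed as well, with no fold because its brightest probe was undetected in Ramos while another was detected. The members that fell, named after their values were seen, were NMI in all 5 derivatives, ZC3HAV1 in Dox250, Dox500 and Dox1000, and SAMD9 and APOBEC3G in Dox500. With only probes detected on all 24 arrays, 13, 14 and 14 rose in Dox100, Dox750 and Dox1000, since fewer genes were then tested. The sensors and adaptors DHX58, STING1 and ZBP1 were undetected on every Ramos array. So were the effectors IFIT1, IFIT2, IFIT3, IFI27, IFI44, EPSTI1, LGALS3BP, PLSCR1 and GBP1, and the brightest probe of IFI44L (all named for this reason). Such genes were kept only through derivatives, so against Ramos they could only be called higher. The counts of genes that rose and the medians above include them.

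**Figure D5:**
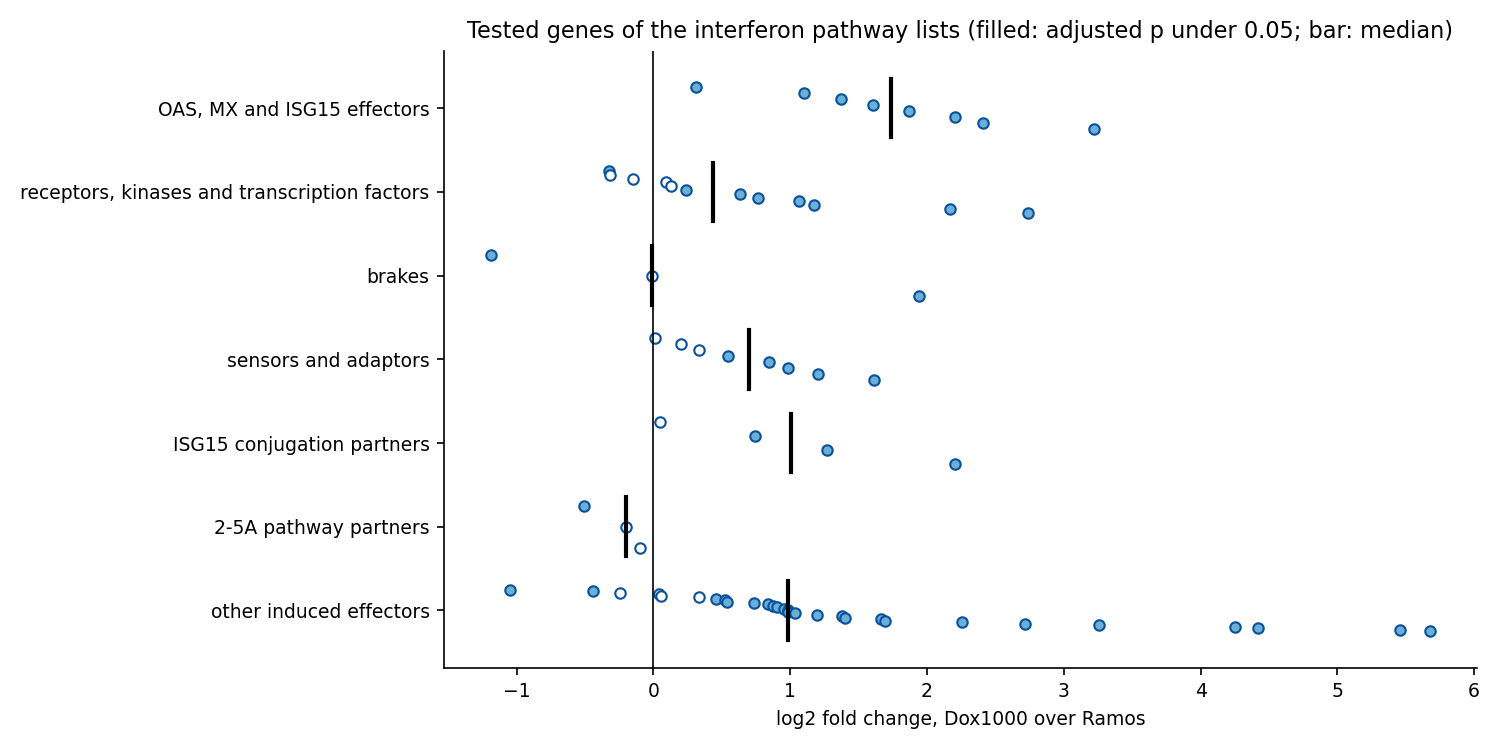
Fitted log2 fold change of Dox1000 over Ramos for each tested gene of the 8 effectors and of 6 lists, filled where the adjusted p was under 0.05, with a black bar at the median. Genes undetected in Ramos are drawn at their fitted value. The bar of the 8 effectors stands at 1.74 and that of the other induced effectors at 0.98.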

How the data were processed

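RNA from 24 cultures was hybridised to Illumina bead arrays, 4 per line, and grouped by the sample labels. The authors deposited raw intensity values, bead signals with no background correction or normalization, as the file headers and the numbers themselves show. Each intensity has a deposited detection p-value, per the file headers. The authors' deposited table holds log2 values that equal log2 of the quantile-normalized signals without background correction (highest difference 5.00e-09), and 24 of 24 columns matched their own array. Per the submitters' processing notes lumi was used; no version is given. Scanner software and annotation release: not given in the sources used here.

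Intensities were background-corrected with limma nec (normexp, control parameters from the detection p-values, offset 16), then quantile-normalized, then put on the log2 scale. Probes needed a detection p under 0.01 on 3 or more of the 4 arrays in some line, and 15765 of 47323 (33.3%) met this, covering 9533 genes. The annotation gave 1 symbol to 30113 probes, several to 8 and none to 17202, and 3260 kept probes were unnamed. The brightest kept probe stood for a gene. One mean per line was fitted to the 24 arrays in limma 3.58.1 (R 4.3.3; 18 residual and 3.99 prior degrees of freedom), with Benjamini-Hochberg adjustment over all kept probes. The procedure was tested on simulated data. No 2 arrays held identical values, and the number of arrays limits the precision.

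The 10 genes are named in every comparison. From each pathway list up to 3 genes were named, those with the largest change in Dox1000 versus Ramos among genes that passed, and other listed genes only where the text says so. Genes of like pattern were the 6 with the highest r to the mean of the standardized levels of the 8 tested genes, and 1 for each of these. The members and lists were chosen with earlier results of these data known. Alternatives covered background correction, normalization, the deposited log2 values, the detection filter, the reading of several probes, the variance model, the arrays in the fit, the threshold, the replicate number as a block, and leaving out single arrays. A few listed genes are not analysed here.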

Additional observations from a re-analysis of the deposited data

Results flagged for a closer look

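The highest or lowest of a line's 4 arrays was set against the other 3 by its gap over the line's whole range (Dixon's test) for each of the 8 tested genes in each of 6 lines. Of 48 such groups 4 held an array beyond Dixon's critical value, and chance gives about 1 in 20. OAS3 had a log2 level of 7.52 in Ramos replicate 3, where the other Ramos arrays ran from 7.17 to 7.22. MX2 had 6.74 in Ramos replicate 1, where the others ran from 6.63 to 6.64. ISG20 had 13.20 in Ramos replicate 1, where the others ran from 12.89 to 12.93. ISG20 also had 13.05 in Dox500 replicate 1, where the others ran from 13.19 to 13.22.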

How the results depend on the processing

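The number of genes that passed against Ramos, and in Dox750 against Dox500, stayed within 1.5 times under every alternative. With 1 array left out it ran from 6 to 7 for Dox500 versus Ramos and for Dox750 versus Dox500, and was 7, 8, 8 and 8 for Dox100, Dox250, Dox750 and Dox1000 versus Ramos. For Dox250 versus Dox100, where 0 passed, the count was 3 without background correction and with the deposited log2 values (OAS1 and ISG15 higher, USP18 lower), 2 with an offset of 50 or an intensity trend, 1 under median scaling, with probes detected on all 24 arrays, with only the 8 arrays compared or with the replicate block, and 0 to 1 with 1 array left out. For Dox500 versus Dox250 it was 3 with no filter or at an adjusted p under 0.01, in place of 6, and 3 to 7 with 1 array left out. For Dox1000 versus Dox750 it was 1 with only the 8 arrays compared and 0 at an adjusted p under 0.01, in place of 3, and 0 to 3 with 1 array left out. The neighbours in the order of lines that passed numbered 8 at an adjusted p under 0.01, in place of 13, and 11 to 15 with 1 array left out. The cause was not tested, apart from settings that test more probes, use fewer arrays or lower the threshold by construction.

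Values that changed sign had not passed in either setting. Under median scaling they were OAS3 (-0.0045) and ISG20 (-0.0052) in Dox500 versus Ramos, OAS2 in Dox250 versus Dox100 (-0.058) and MX1 in Dox1000 versus Dox750 (-0.0515). With 1 array left out, OAS2 ran from -0.0138 to 0.0484 and ISG20 from -0.0694 to 0.0356 in Dox250 versus Dox100, and OAS1 ran from -0.0627 to 0.014 and MX1 from -0.0747 to 0.1134 in Dox1000 versus Dox750. Of the values of single genes, 740 kept direction and side of the threshold under the other alternatives, 22 newly passed, 17 no longer passed and 4 changed sign, and with 1 array left out these numbers were 539, 5, 23 and 9. Differences from Ramos under an offset of 50 were 1.35, 0.85, 0.44, 1.64 and 1.09 for USP18, and each passed. Under median scaling the median of all genes was -0.13, -0.14, -0.11 and -0.13 in Dox250, Dox500, Dox750 and Dox1000 versus Ramos. The genes called higher and lower then numbered 1599 and 3281, 1480 and 3389, 1808 and 3201, and 1896 and 3577 in these lines, in place of 2277 and 2430, 2401 and 2215, 2556 and 2466, and 2632 and 2828. In Dox250 versus Dox100 they numbered 245 and 1442 in place of 497 and 786, in Dox500 versus Dox250 450 and 665 in place of 749 and 649, and in Dox750 versus Dox500 380 and 179 in place of 379 and 383.

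Replicate numbers did not pair the arrays: arrays of the same number in different lines had correlations of deviations between -0.24 and 0.18, with medians of -0.05, -0.03, -0.02 and 0.02 for numbers 1 to 4. The replicate block gave 1 gene (ISG15) in place of 0 for Dox250 versus Dox100 and 14 in place of 13 neighbours in the order of lines, and it changed no other count of genes. Genes at or below the background, such as USP18 in Ramos, OASL and HERC5, have only bounds.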
